A study of Mus musculus with 8 samples.

Results

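The epidermal growth factor (EGF) receptor family and its ligands were followed in 6 RNA-seq libraries of cultured mouse neural stem/precursor cells (NS/PCs), which in the embryo divide to give neurons and later glia. The group holds 10 genes, picked by symbol out of 23997 symbols in each library. They are the receptors Egfr, Erbb2, Erbb3 and Erbb4, the ligands Hbegf, Tgfa, Btc, Egf and Nrg1, and the intracellular inhibitor Errfi1. All 10 symbols were found in every library.

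The control group was 3 libraries of primary NS/PCs labelled with the treatment control, and the other group was 3 libraries of primary NS/PCs labelled Nfia-transduced, that is, cells given extra Nfia, a transcription factor of the nuclear factor I family. Both groups came from the telencephalon of ICR embryos of stage E11.5 (day 11 in the stage label), were grown attached to coated dishes in N2 medium with basic fibroblast growth factor at 10 ng/mL, and were collected 3 days after transduction. EGF is not among the additives that the growth protocol names. The sources used here do not give the vector or what the control cells received. They also do not say whether replicate libraries were separate cultures. The p-values therefore rest on a spread between libraries that may be technical.

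Levels are FPKM, fragments scaled to transcript length and library size, with a value for each gene in each library. Library totals ran from 474010 to 511700 FPKM. No read counts were used here, so the absolute depth is unknown, but the spacing of low values gave depths of 0.760 (Nfia 3) to 1.11 (Nfia 1) relative to control 1. Nfia itself lay at 19.8 to 23.9 FPKM in control and 69.0 to 103.5 FPKM in Nfia libraries, without overlap. A gene entered the test if its mean over all libraries was 1 FPKM or more. These genes were compared with limma on log2(FPKM + 1), and a gene is called higher or lower here at a Benjamini-Hochberg adjusted p under 0.05 over the 12537 genes tested. Log2 differences are Nfia minus control on that scale, which understates the change of low genes. Because 3 libraries against 3 can give no exact permutation p below 0.1, no gene was judged by such a test alone.

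As background, the receptors are tyrosine kinases of the cell surface that pair up when a ligand binds and then switch on the RAS-ERK and PI3K-AKT routes. EGFR binds HB-EGF, TGF-alpha, betacellulin and EGF, ERBB3 and ERBB4 bind neuregulins, and ERBB2 has no known ligand of its own and serves as a partner for the others. ERRFI1 binds the active kinase and blocks it. In the developing forebrain, EGFR is known to become more abundant in progenitors late in gestation, when they respond to EGF and begin to form glia.

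Egfr, Hbegf and Erbb2 were higher with Nfia, Nrg1 was lower, and Erbb4, Tgfa and Errfi1 did not pass the test. These are 7 genes of the 10. The other 3, Erbb3, Btc and Egf, averaged under 1 FPKM and are described by their values. Among all genes tested, 16.1% were called higher and 15.1% lower (31.3% in either direction), and the count of 3 higher and 1 lower is to be read beside those shares. All 3 Nfia libraries lay above all 3 control libraries in Egfr, Erbb2, Hbegf and Tgfa, as in 24.7% of all genes, and below them in Nrg1 and Errfi1, as in 22.9% of all genes.

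**Figure D1:**
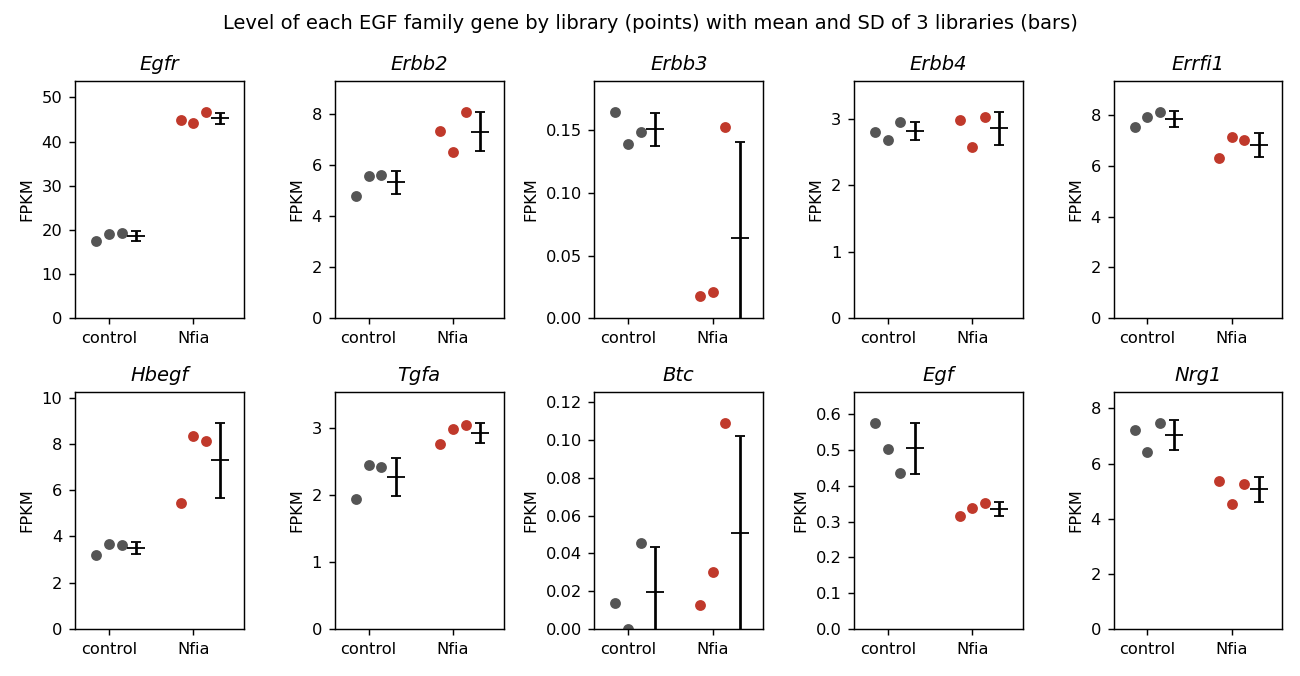
FPKM of each of the 10 genes in each library, one panel per gene with its own vertical axis starting at 0. Points are libraries in the order 1 to 3, and the horizontal bar with whiskers is the mean with SD of 3 libraries, with whiskers cut at 0. Egfr libraries sit near 18.6 FPKM in control and 45.3 FPKM with Nfia, while Erbb4 libraries mix.

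Egfr was the most abundant of the 10 genes in both groups and rose further with Nfia. Its level was 17.4, 19.2 and 19.2 FPKM in control and 45.0, 44.3 and 46.7 FPKM with Nfia. The gap between the groups was far wider than the spread within either. The means were 18.6 ± 1.05 and 45.3 ± 1.24 FPKM (SD, n = 3 per group), 2.44-fold apart, with a log2 difference of 1.24 (SE 0.05, 95% interval 1.12 to 1.37, limma adjusted p = 9.12e-05). By raw p Egfr ranked 12 of 12537 genes, and by the size of its increase 170. It was among the 114 genes (0.909% of those tested) called higher with a log2 difference of at least 1. Within each library Egfr moved from percentile 58.0 ± 1.83 of the genes tested in control to percentile 81.2 ± 0.706 with Nfia (SD, n = 3), a rank that does not depend on how libraries are scaled to each other. The call held under each of the 16 alternative settings, with log2 differences of 1.20 to 1.28. Among them, median-of-ratios scaling changed the values too little to put the call to a test.

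Egfr lies on chromosome 11 from 16752203 to 16913907 in GRCm38.p6, the assembly that mm10 denotes, and Erbb2 lies on the same chromosome from 98412484 to 98437716. These spans are whole genes in RefSeq, without exons. The noncoding models Egfros and Gm39584 overlap the Egfr span and are not among the symbols of the libraries. The promoters of the 2 receptors called higher are shown because NFI proteins are known to bind a palindrome, here TTGGC, any 5 bases and GCCAA, and more weakly its single arm TTGGC. Each stretch is RefSeq sequence of GRCm38.p6, plus strand, chr11:16751953-16752252 for Egfr and chr11:98412234-98412533 for Erbb2, from 250 bases before the start of transcription to 50 bases after it, with any single arm (TTGGC, or GCCAA on the other strand) in capitals.
Egfr: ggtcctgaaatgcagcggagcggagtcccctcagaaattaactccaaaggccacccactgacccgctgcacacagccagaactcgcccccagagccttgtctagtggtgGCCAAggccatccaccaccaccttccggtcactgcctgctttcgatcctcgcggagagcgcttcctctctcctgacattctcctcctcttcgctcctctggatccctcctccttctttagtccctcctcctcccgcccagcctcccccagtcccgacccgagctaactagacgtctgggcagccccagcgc
Erbb2: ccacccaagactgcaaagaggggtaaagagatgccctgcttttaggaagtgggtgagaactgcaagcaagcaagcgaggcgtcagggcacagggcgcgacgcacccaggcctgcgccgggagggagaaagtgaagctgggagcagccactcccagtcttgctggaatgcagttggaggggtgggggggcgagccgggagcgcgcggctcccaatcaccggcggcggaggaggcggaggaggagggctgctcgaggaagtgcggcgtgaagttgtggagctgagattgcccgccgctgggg
The Egfr stretch holds 1 arm, GCCAA, with its first base at -141 from the start, and the Erbb2 stretch holds none. Of the 10 genes, 7 matched the promoter table, with 9 promoters, and Erbb3, Hbegf and Nrg1 did not. The arm stood in 3 of the 9 (those of Egfr and Tgfa and 1 of the 2 of Errfi1) and the palindrome in 0 of the 9. Among all 32851 promoters of the table, 46.7% held the arm and 0.0365% the palindrome. A match is a run of letters and not a binding site, and the Flag ChIP and IgG ChIP samples of the series are not analysed here.

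Erbb2, the partner receptor, rose less. It stood at 4.81, 5.57 and 5.61 FPKM in control and 7.34, 6.52 and 8.06 FPKM with Nfia. The groups did not overlap, though the lowest Nfia library lay within 1 FPKM of the highest control library. Means were 5.33 ± 0.454 and 7.31 ± 0.771 FPKM (SD, n = 3 per group), 1.37-fold apart (log2 difference 0.39, SE 0.09, limma adjusted p = 0.0179). Leaving out control 1, Nfia 1 or Nfia 3 ended that call (limma adjusted p = 0.0584, 0.0582 and 0.0560), with log2 differences of 0.33, 0.39 and 0.33. The Erbb2 span shares 9 bases with that of Mien1, whose mean went from 69.6 to 58.3 FPKM (limma adjusted p = 0.0702), and the sources used here do not say whether reads were counted by strand.

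Erbb4, a neuregulin receptor known from migrating interneurons, differed little. It was 2.81, 2.68 and 2.96 FPKM in control and 2.98, 2.57 and 3.02 FPKM with Nfia. The highest and the lowest of the 6 values both came from Nfia libraries. The log2 difference was 0.01 with a 95% interval of -0.18 to 0.21 (limma adjusted p = 0.911), so a change within that interval is not excluded. Its sign turned under upper-quartile scaling (-0.01), with library quality weights (-0.05) and without control 2, Nfia 1 or Nfia 3 (-0.01, -0.01 and -0.02). Beside it, 4 of 6 markers of GABA interneurons were lower and 0 higher, where 15.1% of all genes were lower and 16.1% higher. The summed level of these markers went from a range of 226.7 to 247.8 FPKM in control to 134.2 to 161.0 FPKM with Nfia. The part of these cells in the Erbb4 level was not tested. In bulk libraries, fewer cells of a type and less RNA per cell cannot be told apart.

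Erbb3, a receptor with little kinase activity of its own that is best known from neural crest, Schwann cells and oligodendrocyte precursors, was near the limit of measurement. It was 0.165, 0.139 and 0.149 FPKM in control, 0.0175 and 0.0213 FPKM in Nfia 1 and Nfia 2, and 0.153 FPKM in Nfia 3. Thus 2 Nfia libraries lay well under all controls and the third lay among them. Multiplied by the relative depth, the values were whole multiples (within 0.02) of 1 step: 17, 13 and 14 steps in control and 2, 2 and 12 in the Nfia libraries. If a step is 1 fragment, each value rests on few fragments. With no filter on low values the log2 difference was -0.12 (SE 0.05, limma adjusted p = 0.193). Of the other 6 neural crest and Schwann markers, 3 averaged under 1 FPKM, among them Foxd3, which was listed at 0 in 3 libraries, and Tfap2b, and Sox10 ranged from 1.31 to 2.54 FPKM in control and from 0.949 to 1.33 FPKM with Nfia. The summed level of these 6 markers was 7.73 to 9.82 FPKM in control and 18.3 to 26.2 FPKM with Nfia, and the gain was in Ngfr (1.94 to 18.3 FPKM in the means).

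The summed level of the receptors was higher with Nfia, and Egfr made up a larger share of it. Their summed FPKM was 25.2, 27.5 and 28.0 in control and 55.3, 53.4 and 57.9 with Nfia, 2.07-fold apart in the means. Egfr made up 69.1%, 69.6% and 68.8% of that sum in control and 81.3%, 82.9% and 80.6% with Nfia. Erbb2 went from 19.8% ± 0.608 to 13.1% ± 0.861 and Erbb4 from 10.5% ± 0.726 to 5.14% ± 0.288 (SD, n = 3 per group), although neither gene was called lower in level. There were 3.49 ± 0.106 Egfr to each Erbb2 (ratio of FPKM) in control and 6.24 ± 0.509 with Nfia. For each of these quantities the groups did not overlap, and the exact permutation test (two-sided) gave p = 0.1, the smallest it can give with 3 libraries against 3.

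**Figure D2:**
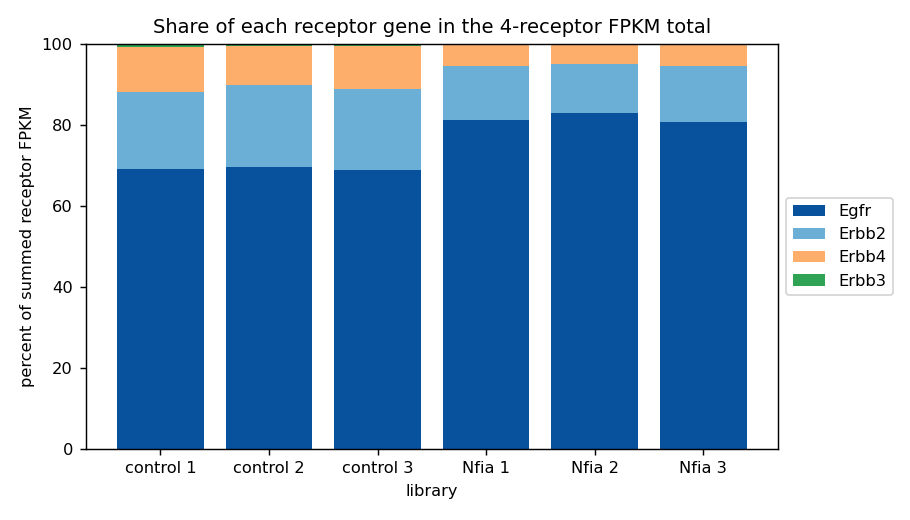
Percent of the summed FPKM of Egfr, Erbb2, Erbb4 and Erbb3 that each gene makes up, as stacked bars for the 6 libraries. The Egfr part reaches 68.8% to 69.6% in control and 80.6% to 82.9% in Nfia libraries, and the Erbb3 part is too thin to see in most bars.

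Among the ligands, Hbegf, which encodes a membrane-bound precursor of a heparin-binding EGFR ligand, rose. It was 3.22, 3.68 and 3.62 FPKM in control and 5.43, 8.34 and 8.12 FPKM with Nfia. Nfia 1 stood apart from the other two Nfia libraries but above every control library. The means were 3.51 ± 0.252 and 7.30 ± 1.62 FPKM (SD, n = 3 per group), 2.08-fold apart (log2 difference 0.86, SE 0.15, limma adjusted p = 0.00635). Without Nfia 1 the log2 difference was 1.04, and with 5 libraries of any choice the call held (adjusted p = 0.00193 to 0.0303). The fibroblast markers Col1a1, Col1a2, Dcn and Lum, looked at after the data were seen, were also lowest in library 1 of each group. Col1a1 was 0.889, 2.95 and 3.23 FPKM in control and 1.09, 4.98 and 5.16 FPKM with Nfia, and its part in the Hbegf level was not tested. In GRCm38.p6 Hbegf spans 36504927 to 36515805 of chromosome 18. It shares 613 bases with the noncoding model Gm41698, which is not among the symbols of the libraries.

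Tgfa, an EGFR ligand also made as a membrane precursor, was 1.95, 2.44 and 2.43 FPKM in control and 2.76, 3.00 and 3.04 FPKM with Nfia. All Nfia values were above all control values, yet the difference did not pass the test (log2 difference 0.27, SE 0.09, 95% interval 0.04 to 0.49, limma adjusted p = 0.0713). It passed with quantile normalization, without a variance trend and with library quality weights (adjusted p = 0.0430, 0.0402 and 0.0455).

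Egf and Btc, ligands of EGFR (Btc also of ERBB4), were hardly expressed. Egf stood at 0.577, 0.502 and 0.435 FPKM in control and 0.316, 0.339 and 0.352 FPKM with Nfia. Each Nfia library was below each control library. With no filter on low values its log2 difference was -0.17 (SE 0.05, limma adjusted p = 0.0516). Btc was 0.0138, 0 and 0.0455 FPKM in control and 0.0125, 0.0304 and 0.109 FPKM with Nfia, which is 1, 0, 3, 1, 2 and 6 steps, and no fold is given at so few.

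Nrg1, the neuregulin gene, was lower with Nfia. It held 7.22, 6.42 and 7.48 FPKM in control and 5.38, 4.53 and 5.27 FPKM with Nfia. The groups did not overlap. The means of 7.04 ± 0.553 and 5.06 ± 0.463 FPKM (SD, n = 3 per group) gave a ratio of 0.719 (log2 difference -0.41, SE 0.08, limma adjusted p = 0.0116), and it was called lower again whichever library was left out (adjusted p = 0.0180 to 0.0481). Neuron markers fell beside it, 7 of 8 being lower and 0 higher, where 15.1% of all genes were lower and 16.1% higher. The summed level of these markers was 1355 to 1467 FPKM in control and 797.1 to 822.6 FPKM with Nfia. Their part in the Nrg1 level was not tested. Several noncoding models lie within the Nrg1 span on chromosome 8 (31807452 to 32891609), and of those in the table Gm8179 was listed at 0 in all libraries.

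Errfi1, the feedback inhibitor that ERK signalling is known to induce, did not rise with its receptor. Its values were 7.51, 7.93 and 8.12 FPKM in control and 6.29, 7.14 and 7.01 FPKM with Nfia. Each Nfia library was below each control library, by a small margin. The log2 difference was -0.18 (SE 0.06, 95% interval -0.33 to -0.03, limma adjusted p = 0.0715), so it did not pass the test. It passed under upper-quartile scaling and quantile normalization (adjusted p = 0.0479 and 0.0332). There were 2.31, 2.42 and 2.37 Egfr to each Errfi1 (ratio of FPKM) in control and 7.15, 6.20 and 6.66 with Nfia.

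**Figure D3:**
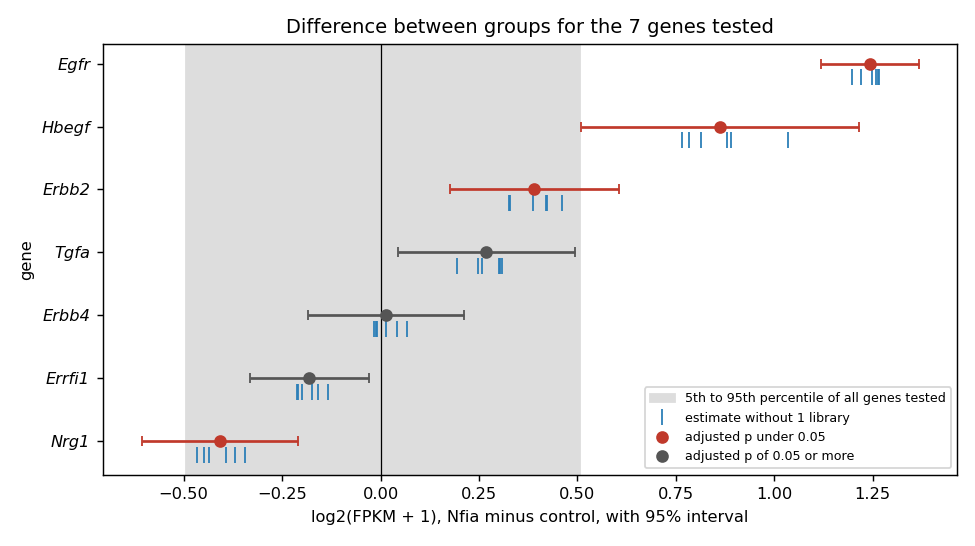
Log2(FPKM + 1) difference, Nfia minus control, for the 7 genes tested, with 95% intervals from limma (points and whiskers), the estimates without each library (blue ticks) and the range from the 5th to the 95th percentile of all genes tested (grey, -0.49 to 0.51). Egfr at 1.24 and Hbegf at 0.86 lie outside the grey range, and the other five genes lie inside it.

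By mean level the order in control was Egfr, Errfi1, Nrg1, Erbb2, Hbegf, Erbb4, Tgfa, Egf, Erbb3 and Btc, and no 2 neighbours overlapped in their library values. With Nfia the order was Egfr, Erbb2, Hbegf, Errfi1, Nrg1, Tgfa, Erbb4, Egf, Erbb3 and Btc. There the values of Erbb2 and Hbegf overlapped, as did those of Hbegf and Errfi1, of Tgfa and Erbb4, and of Erbb3 and Btc. By the means, Hbegf thus moved from place 5 to place 3 and Erbb2 from place 4 to place 2. The values of Erbb2 (6.52 to 8.06 FPKM) and Errfi1 (6.29 to 7.14 FPKM) with Nfia overlapped too. The places of Erbb2, Hbegf and Errfi1 relative to each other in the Nfia group are therefore not separated by the spread.

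Of 9726 other genes averaging 5 FPKM or more, Prr18, Crip2, Sec14l2, Igfbp3 and Olig2 followed Egfr most closely over the 6 libraries (Pearson r of log2(FPKM + 1) from 0.9993 to 0.9996). The 6 libraries form 2 groups, so such values mostly restate a wide gap with little spread, and they are given as a description. Prr18 went from 15.5 to 40.6 FPKM, Sec14l2 from 7.31 to 19.1 FPKM and Igfbp3, a binding protein of insulin-like growth factors, from 98.8 to 203.1 FPKM in the means.

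The other ErbB ligands were scarce. Of 6 listed, Nrg3 passed the filter, at 1.27 ± 0.00822 FPKM in control and 1.08 ± 0.180 FPKM with Nfia (SD, n = 3 per group; limma adjusted p = 0.422). Areg, the amphiregulin gene of an EGFR ligand, was 0.223, 0.205 and 0.122 FPKM in control and 0.302, 0.652 and 0.780 FPKM with Nfia. Nrg2 was 0.563, 0.513 and 0.879 FPKM in control and 1.00, 1.41 and 1.41 FPKM with Nfia. Both had higher values in all Nfia libraries than in any control library. With no filter on low values Nrg2 passed the test (log2 difference 0.46, limma adjusted p = 0.0416) and Areg did not (0.40, adjusted p = 0.0632).

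Several genes for the proteases that cut ErbB ligands from the membrane were higher. Of 10 tested in a list of sheddases and their cofactors, 6 were higher and 0 lower, beside 16.1% and 15.1% of all genes. The list's median log2 difference was 0.25 beside 0.01 for all genes. The list was chosen with earlier results of these data known, so its count and median are a description. It also holds the inhibitor gene Timp3, which was not called. Adam19, a neuregulin-cleaving metalloprotease, rose from 5.02 ± 0.285 to 17.8 ± 2.44 FPKM (SD, n = 3 per group; log2 difference 1.64, SE 0.10, limma adjusted p = 0.000179). Adam15 and Adam12, metalloproteases of the same family, had log2 differences of 0.85 and 0.54. Further genes, chosen after their values were seen, complete the count. Adam17, the main sheddase of TGF-alpha and HB-EGF, ranged from 14.2 to 15.6 FPKM in control and from 17.1 to 18.2 FPKM with Nfia (log2 difference 0.22, adjusted p = 0.0206). Rhbdf1, an inactive rhomboid that carries ADAM17 to the surface, had a log2 difference of 0.28 and Adam9 one of 0.21. Adam10, the main sheddase of EGF and betacellulin, was 50.4 ± 2.70 and 50.5 ± 0.881 FPKM (adjusted p = 0.954). Adam17 was no longer called when control 1, control 3, Nfia 2 or Nfia 3 was left out (limma adjusted p = 0.0569 to 0.0686), nor Adam9 without control 1 or control 3 (0.0527 and 0.0545), and the count of higher genes was then 4 without either control and 5 without either Nfia library.

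Among brakes on the receptors and genes of their turnover, 2 of 15 tested were higher and 2 lower, beside 16.1% and 15.1% of all genes, with a median log2 difference of -0.02. Lrig1, a membrane protein that lowers ErbB receptor levels, rose from 33.0 ± 1.30 to 45.0 ± 1.86 FPKM (SD, n = 3 per group; log2 difference 0.43, limma adjusted p = 0.00146), and the receptor phosphatase gene Ptprj rose by a log2 difference of 0.62. Those that fell were the phosphatase gene Ptpn1 (-0.21) and Sh3kbp1, an adaptor of receptor uptake (-0.35). Ptprj lost its call when control 1, control 3, Nfia 2 or Nfia 3 was left out (limma adjusted p = 0.0567 to 0.0770), which left 1 gene higher, and Sh3kbp1 lost it without control 3, Nfia 1 or Nfia 3 (0.0594, 0.0508 and 0.0549), which left 1 gene lower.

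In the RAS-ERK cascade below the receptors, 4 of 22 tested were higher, 2 lower and 16 neither, a share of calls near the 31.3% of all genes, with a median log2 difference of 0.02. Mapk3, the ERK1 gene, rose from a mean of 51.3 to one of 73.2 FPKM (log2 difference 0.51, limma adjusted p = 0.000488). The RAS gene Nras (0.28), the exchange factor gene Sos2 (0.18) and the docking protein gene Gab1 (0.23) were also higher, and the adaptor gene Grb2 (-0.26) and the kinase gene Araf (-0.19) lower. The call of Sos2 ended without any 1 library (adjusted p = 0.0671 to 0.104), that of Gab1 without any 1 library other than Nfia 2 (0.0610 to 0.142) and that of Araf without Nfia 2 (0.0515). Without control 1, control 2, control 3, Nfia 1 or Nfia 3 the count of higher genes was 2, as it was under upper-quartile scaling and with no filter on low values, and without Nfia 2 that of lower genes was 1.

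In the PI3K-AKT arm 2 of 12 tested were higher and 4 lower, beside 16.1% and 15.1% of all genes, with a median log2 difference of -0.02. Pik3r3, a regulatory subunit of the lipid kinase, fell from 58.9 ± 1.99 to 40.1 ± 0.990 FPKM (SD, n = 3 per group; log2 difference -0.54, limma adjusted p = 0.000459), and the subunit gene Pik3r2 rose (0.19). Smaller calls were those of the kinase gene Akt2 (0.17) and of Pik3ca, a catalytic subunit (-0.18). Both ended when single libraries were left out, Akt2 without any but Nfia 1 (limma adjusted p = 0.0523 to 0.0900) and Pik3ca without any but Nfia 3 (0.0626 to 0.0865). Without control 1, control 3 or Nfia 2 the counts were 1 higher and 1 lower, without Nfia 1 they were 2 and 1, and without control 2 or Nfia 3 they were 1 and 3. With the replicate number as a block 2 genes were lower, and under upper-quartile scaling 1 was higher.

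Of 11 genes of the PLC-gamma, SRC and STAT arm, 2 were higher and 1 lower, again near the 31.3% of all genes called in either direction, with a median log2 difference of 0.11. Vav3, an exchange factor of small GTPases that EGFR can phosphorylate, rose from 12.5 ± 0.263 to 23.1 ± 0.720 FPKM (SD, n = 3 per group; log2 difference 0.84, limma adjusted p = 0.000151). Stat3, a transcription factor of astrocyte formation, rose from 20.7 ± 2.45 to 29.1 ± 1.64 FPKM (0.48), and the kinase gene Src fell (-0.27). Without Nfia 1 or Nfia 2 the count of higher genes was 4 or 3, respectively.

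Of 15 tested genes that ERK signalling is known to induce, 4 were higher and 3 lower, beside 16.1% and 15.1% of all genes, with a median log2 difference of 0.02. Ier3 rose (log2 difference 2.11, SE 0.15, limma adjusted p = 0.000366), as did Etv4 (0.68), Spred2 (0.27) and Spry2 (0.23). Dusp4, an ERK phosphatase, fell from 185.7 ± 1.41 to 113.5 ± 5.60 FPKM (SD, n = 3 per group; log2 difference -0.71, limma adjusted p = 0.000318), and Etv1 (-0.31) and Fos (-0.38) were lower too. The call of Spry2 ended without control 3 (adjusted p = 0.0569), that of Spred2 without control 1, control 3 or Nfia 2 (0.0678, 0.0579 and 0.0512) and that of Fos without control 2, control 3, Nfia 2 or Nfia 3 (0.10 to 0.121), with no filter (0.0632) and with the replicate number as a block (0.0734). Without control 3 the counts were 2 higher and 2 lower.

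**Figure D4:**
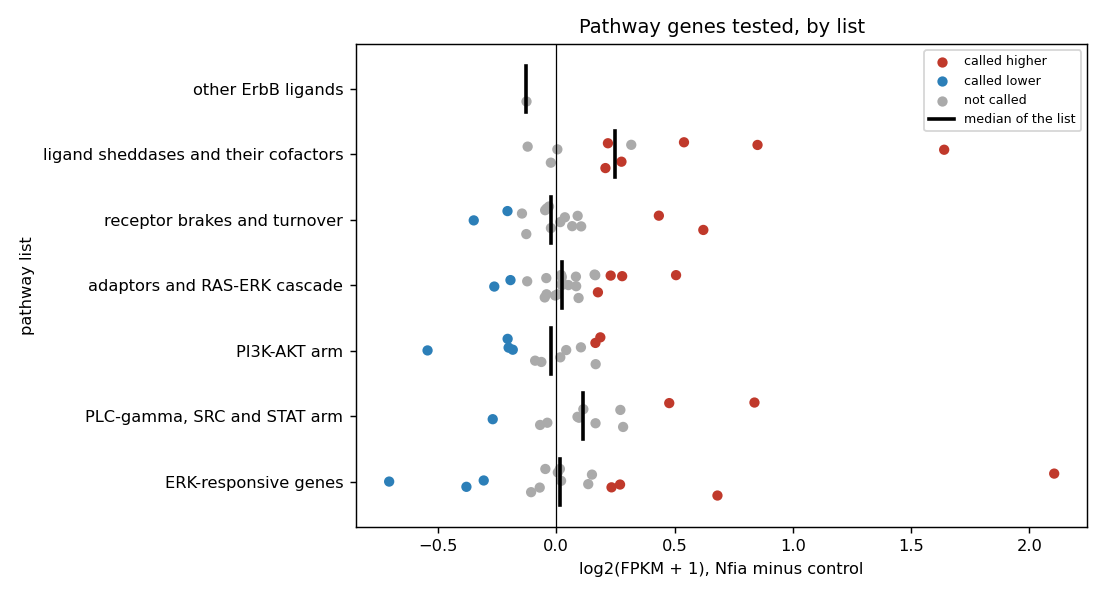
Log2(FPKM + 1) difference, Nfia minus control, for each pathway gene tested, in 7 lists. Red points were called higher, blue points lower and grey points neither, and the black bar is the list's median. The sheddase list has its median at 0.25, and the other lists have medians between -0.13 and 0.11.

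Markers of the labelled cell type were present in all libraries, and of 8 tested 4 were higher and 2 lower. Among all genes tested, 16.1% were higher and 15.1% lower, and each marker count here is to be read beside those shares. Examples for each direction were chosen after their values were seen. Nes ranged from 88.0 to 97.9 FPKM in control and from 145.3 to 154.9 FPKM with Nfia, and Sox2, which was not called, from 221.6 to 237.9 and from 229.6 to 247.3 FPKM. The lower markers were Pax6, at 16.1 to 19.0 FPKM in control and 10.5 to 11.1 FPKM with Nfia (limma adjusted p = 0.00101), and Hes5, at 24.5 to 29.6 and 15.4 to 21.9 FPKM (adjusted p = 0.0163). Transcripts of neuron markers were present in both groups, at the summed levels given above. Of 7 markers of oligodendrocyte precursors, 3 were higher and 1 lower, and their summed level went from 355.5 to 401.5 FPKM in control to 1049 to 1112 FPKM with Nfia. Olig1 and Olig2 made up most of that sum and were higher, as was Nkx2-2 (log2 difference 0.53). Pdgfra was lower (log2 difference -0.64, limma adjusted p = 0.00174), and the rest, Sox10, Gpr17 and Cspg4, were not called (-0.41, -0.43 and 0.21). Of 5 astrocyte markers tested, 1 was higher and 2 lower (summed level 134.9 to 146.1 and 158.5 to 172.0 FPKM). The higher one was Slc1a3 (log2 difference 0.59), and the lower ones were Aldh1l1 (-0.499) and Gfap (-0.51). The gain of the oligodendrocyte precursor sum was mostly in Olig1 (226.7 to 689.6 FPKM in the means) and Olig2 (136.2 to 373.0 FPKM). That of the astrocyte sum was mostly in Slc1a3 (56.5 to 85.3 FPKM). Single markers in both lists went either way, so the sums do not stand for the lists as a whole. The part of oligodendrocyte precursors and astrocytes in the Egfr level was not tested. Microglia markers (0 of 6 tested) summed to at most 1.72 FPKM in any library, endothelial markers (1 of 6 tested, lower) to at most 3.68, erythroid markers (0 of 5 tested) to at most 1.49, and markers of pericytes and meningeal fibroblasts (6 tested, 1 lower) to 7.83 to 14.7 in control and 5.91 to 12.6 with Nfia.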

How the data were processed

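The deposited values are FPKM, 1 per gene symbol and library; the files have no header, so the unit was read from the values and the tools named. Per the labels' protocols, poly(A) RNA was made into directional libraries. Per the submitters' processing notes, the build was mm10 and the tools were Bowtie (version 1), TopHat, Cufflinks, Cuffdiff, SAMtools and MACS (version 1.4), without settings. The sources used here give no annotation, filter or strand setting. Where FPKM divides by the library's mapped fragments alone, a rise of abundant transcripts lowers other values. Here the median-of-ratios factors of the libraries lay between 0.9994 (control 2) and 1.0006 (Nfia 1). By that measure the values were already level between libraries. The sources used here do not say how the submitters scaled them.

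FPKM was used without further scaling. limma version 3.58.1 in R version 4.3.3 compared log2(FPKM + 1) between groups (lmFit, eBayes with a variance trend, two-sided, all 6 libraries, no covariate) for genes averaging at least 1 FPKM. The step was run on simulated data with independent normal noise, limma's own variances and known shifts in a few genes. Since the model holds there by design, that run checks the code and not the calls made here. Depth relative to control 1 was taken from the commonest ratio of values among genes of low level, so precision at low values is limited and no counting interval is given. Pathway and marker lists are described by counts, with no set test. Named are the 10 genes, from each list the called genes with the lowest adjusted p (up to 3) plus those behind a count of 5 or fewer, Nfia, and the 5 genes most like Egfr. The genes and lists were chosen with earlier results of these data known. The alternatives were a pseudocount of 0.1, no filter, a mean of at least 5 FPKM, scaling by quantiles, by the upper quartile or by the median of ratios, no trend, a robust trend, library weights, a replicate block, and leaving out each library. Flag ChIP and IgG ChIP were not analysed here, and single values of some genes within the list counts are not reported here. Positions and promoters are RefSeq, GRCm38.p6, matched by symbol.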

Additional observations from a re-analysis of the deposited data

How the results depend on the processing

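The count of EGF family genes called higher was 3 or 4 under the 10 alternatives that kept all libraries and 2 to 3 when 1 library was left out. The count called lower was 1 except under upper-quartile scaling and quantile normalization, where Errfi1 joined Nrg1 and it was 2, and it was 1 without any 1 library. Over all genes, 1290 to 1625 were called higher and 1251 to 1572 lower when 1 library was left out, the lowest counts being those without Nfia 2. The calls of Egfr, Hbegf and Nrg1 held under all 16 alternatives, and no called gene named here changed sign. Among the alternatives, median-of-ratios scaling had factors of 0.9994 to 1.0006. It left the values almost as they were and could hardly alter a call. The labels do not say that replicate numbers pair the samples. Over genes, deviations of same-numbered libraries correlated at 0.03, -0.01 and 0.05, and control 1 correlated best with Nfia 2, although Col1a1, Col1a2, Dcn and Lum were lowest in library 1 of both groups. With the replicate number as a block, 3 EGF family genes were higher and 1 lower, and over all genes 2130 and 1916. Of the 29 pathway genes named by rule, 17 kept their call under every alternative and 12 lost it in some. Erbb3, Btc and Egf lie below the filter, and the absolute depth behind their values is unknown.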

Other observations

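The balance between the 2 ligand classes differed between the groups, in quantities chosen after the values were seen. The 7 EGF-like ligands that bind EGFR (Hbegf, Tgfa, Btc, Egf, Areg, Ereg and Epgn) summed to 6.26, 7.26 and 6.85 FPKM in control and 9.38, 12.8 and 13.1 FPKM with Nfia, and Hbegf alone was 51.7% ± 1.09 and 61.6% ± 3.69 of that sum (SD, n = 3 per group). The 4 neuregulins summed to 10.0, 9.12 and 10.7 FPKM in control and 8.54, 7.66 and 9.0 FPKM with Nfia. The ratio of EGFR ligands to neuregulins was 0.626, 0.796 and 0.637 in control and 1.10, 1.67 and 1.46 with Nfia. Neuregulin transcripts were thus more abundant than those of EGFR ligands in every control library and less abundant in every Nfia library. The exact permutation test (two-sided, n = 3 per group) gave p = 0.1 for the ratio, the smallest it can give. Hbegf to Nrg1, the leading gene of each class, stood at 0.446, 0.573 and 0.484 in control and 1.01, 1.84 and 1.54 with Nfia.

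After correction for relative depth, the 6 values of Btc and those of Erbb3 were whole multiples of a single step (the farthest was 2.21e-05 and 5.94e-05 steps from a whole number), while no such step was found for Egf at 1 to 5 steps for its lowest value.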
